A study of Homo sapiens with 6 samples.

Results

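The 10 transcripts described here belong to the ATF4 branch of the integrated stress response. They were taken by gene symbol from a table of 36458 symbols: the transcription factors ATF4, ATF3, ATF5, DDIT3 and CEBPB, and the effectors CHAC1, TRIB3, DDIT4, SESN2 and ASNS. All 10 were found and all 10 passed the filter on low counts. The libraries came from DMS114, an established cell line of human small cell lung cancer. In the treated group the cells received β-alanine, a non-protein amino acid, at 2.5 mM for 48 h, and in the control group an equal volume of vehicle. Each group had 3 libraries of polyadenylated RNA. The labels name no separate cultures, so p-values measure the spread between these libraries, which may be technical.

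The integrated stress response starts when a kinase such as GCN2, PERK, PKR or HRI phosphorylates the initiation factor eIF2α. General translation then falls while translation of ATF4, a basic leucine zipper (bZIP) factor whose mRNA carries upstream open reading frames, rises. ATF4 pairs with C/EBP family proteins on composite elements of target genes for amino acid supply, redox control and, under lasting stress, cell death. Because much of this control acts on translation, mRNA counts show only the transcript side of the pathway.

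Depth ran from 14433801 to 32909568 counts per library, with the shallowest library in the β-alanine group (library 1). That library differed more from the others of its group (chi-square per gene of 4.22 and 4.93) than those did from each other (2.25), and control pairs lay between 1.96 and 3. Levels are given as CPM, the count scaled to library size with the trimmed mean of M-values (TMM). Of the neuroendocrine markers checked, SYP stood at 61.0 and CHGA at 19.6 CPM in controls (86.3 and 28.8 after β-alanine), while INSM1 was at 0.229 CPM. DCN, usually a fibroblast marker, was at 191 CPM in controls and 159 CPM after β-alanine. PTPRC, PECAM1 and VWF, markers of blood and endothelial cells, were at 0 in all control libraries. Whether the marker levels play a part in the results was not tested. In bulk RNA, fewer cells of a type and less RNA per cell cannot be told apart.

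The promoter windows are shown first for the genes that hold an ATF4-type element. The element searched was the core of the C/EBP-ATF response element, TGATGNAA, on both strands, in windows of 250 bases before to 50 bases after each annotated start (RefSeq, GRCh38.p14). All 10 genes matched, with 19 windows in all. The element occurred in windows of CHAC1, ASNS and ATF3, and only CHAC1 held the strict form TGATGCAA. Of all 35116 windows in the table, 3.62% held the core and 0.866% the strict form. Counted by gene, the shares were 4.46% and 1.08% of 27305 genes. No match in the other windows says only that these letters are not in that stretch. Capitals mark the match, and each sequence runs 5′ to 3′ on the strand of the gene.

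CHAC1 (chr15:40953221-40953520, plus strand; the match reads TTGCATCA, the reverse complement of the strict form, and begins 209 bases before the start):
CHAC1: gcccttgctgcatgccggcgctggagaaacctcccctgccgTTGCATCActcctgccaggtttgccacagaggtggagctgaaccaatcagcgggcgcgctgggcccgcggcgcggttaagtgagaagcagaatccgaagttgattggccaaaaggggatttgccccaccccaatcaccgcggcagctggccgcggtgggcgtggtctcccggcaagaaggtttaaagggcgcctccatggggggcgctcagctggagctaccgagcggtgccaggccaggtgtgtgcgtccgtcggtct
ASNS (chr7:97872359-97872658, minus strand; the match TGATGAAA begins 68 bases before the start):
ASNS: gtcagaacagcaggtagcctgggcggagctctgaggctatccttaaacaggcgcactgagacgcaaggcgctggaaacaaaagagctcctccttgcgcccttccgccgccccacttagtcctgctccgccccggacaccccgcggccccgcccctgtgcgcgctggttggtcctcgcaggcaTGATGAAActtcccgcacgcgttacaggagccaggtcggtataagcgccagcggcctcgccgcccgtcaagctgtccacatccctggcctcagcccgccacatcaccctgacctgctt
ATF3 (chr1:212565157-212565456, plus strand, the distal of its annotated starts; the match TGATGGAA begins 191 bases before the start):
ATF3: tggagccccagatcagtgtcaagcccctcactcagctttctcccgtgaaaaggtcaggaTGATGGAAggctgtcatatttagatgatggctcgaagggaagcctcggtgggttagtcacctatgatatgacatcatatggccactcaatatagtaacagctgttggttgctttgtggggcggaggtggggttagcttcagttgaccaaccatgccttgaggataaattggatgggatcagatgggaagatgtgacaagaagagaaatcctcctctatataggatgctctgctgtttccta

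Across tested genes with a window (11373), 298 held the core element, of which 61 rose (20.5%) and 37 fell (12.4%), against 16.1% and 15.4% of all tested genes with a window. For the strict form, 19 of 78 rose (24.4%) and 6 fell (7.69%). The median log2 changes were 0.03 and 0.06, against 0.00. These shares are descriptions, and no test was made of them.

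The comparison of β-alanine with vehicle asks which of these transcripts differ after exposure to the compound. ATF4 itself, the stress factors ATF3 and DDIT3, and the effectors CHAC1, TRIB3 and SESN2 rose, while ATF5, CEBPB, DDIT4 and ASNS passed the test in neither direction. The sizes were unequal: ATF3 was 3.84-fold and CHAC1 1.92-fold higher, DDIT3 and TRIB3 were 1.44-fold and 1.43-fold higher, and ATF4 and SESN2 were 1.15-fold and 1.13-fold higher. In edgeR's quasi-likelihood test across 17331 genes, 6 of the 10 rose at an adjusted p under 0.05, where 14.1% of all tested genes rose. None of the 10 fell in edgeR, DESeq2 or limma-voom, where 13.8% of all tested genes fell in edgeR; 1 of them, ATF5, was lower at an unadjusted p under 0.05. In either direction 27.9% of tested genes were called. Without β-alanine library 1, which stood apart, these 6 were again called and ASNS was added. Calls over all genes also grew in that setting, to 3204 that rose and 3294 that fell, against 2441 and 2389 with all libraries. The median log2 change was 0.27 over the 10 genes and 0.00 over all tested genes.

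In 6 of the 10 genes every β-alanine library lay above every control, a pattern found in 19.9% of tested genes. In 1 gene, ATF5, every β-alanine library lay below every control, as in 19.2% of tested genes. The groups overlapped for CEBPB, DDIT4 and ASNS.

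**Figure D1:**
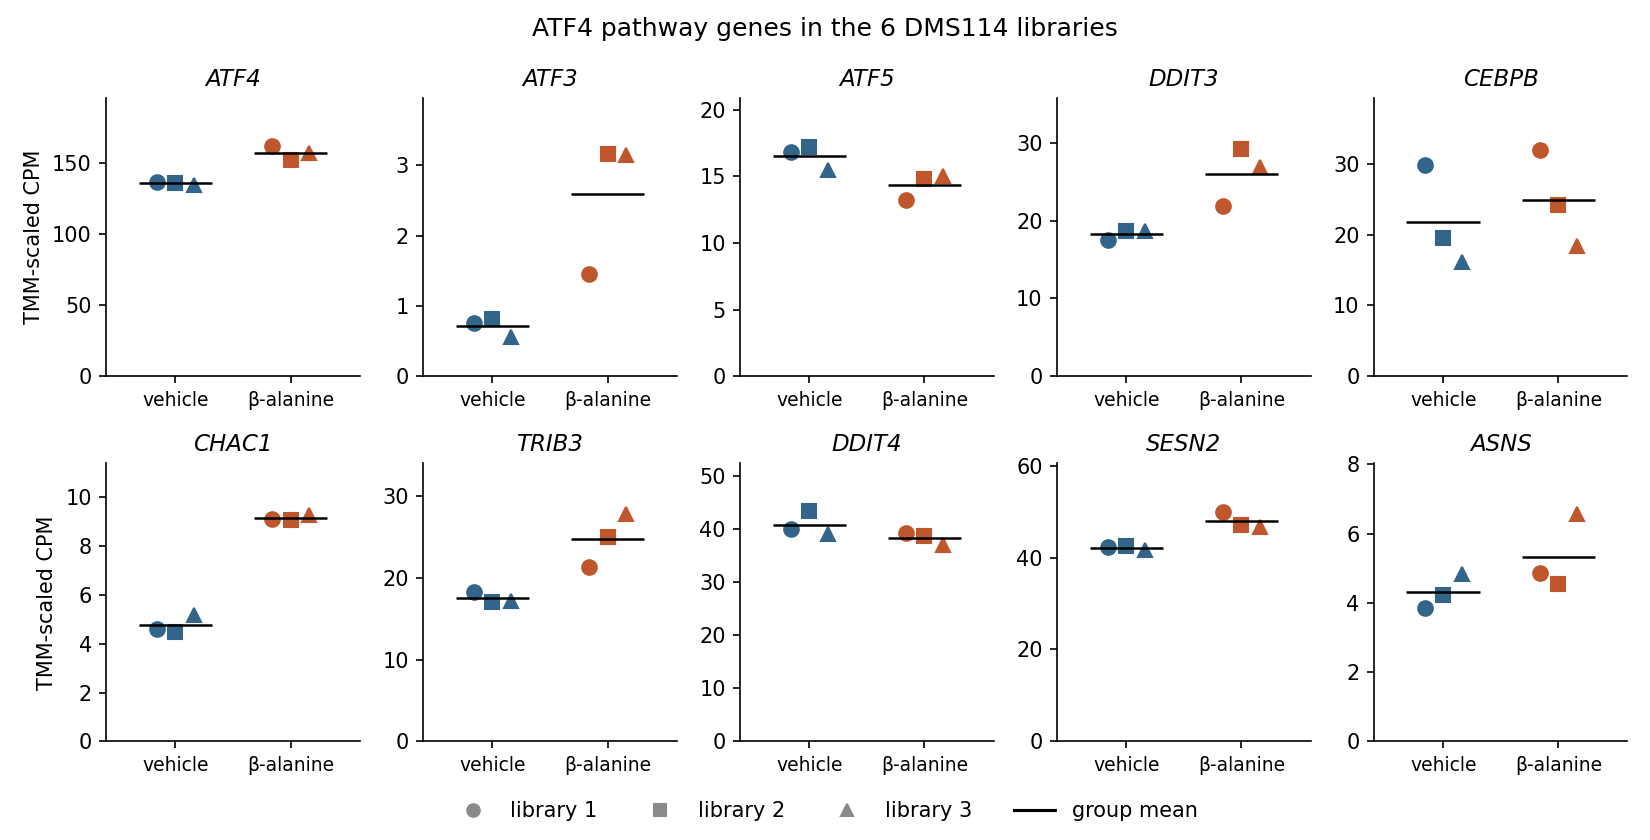
TMM-scaled CPM of each gene (vertical axis, from 0) in the 3 vehicle and 3 β-alanine libraries, with symbols for the library number and a line at the group mean. CHAC1 sits between 9.08 and 9.26 CPM after β-alanine and between 4.50 and 5.20 CPM in controls, while the 2 groups of CEBPB cover nearly the same range.

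Among the factors, ATF4 is the activator after which this set is named, and its protein was not measured here. Its transcript stood at 137, 136 and 135 CPM in control libraries 1, 2 and 3, and at 162, 152 and 157 CPM in β-alanine libraries 1, 2 and 3. The controls lay within a narrow band and all 3 treated libraries were above it. The means were 136 ± 1.14 CPM in controls and 157 ± 4.62 CPM after β-alanine (SD, n = 3 per group). The fitted log2 change was 0.21 ± 0.04 (SE; edgeR adjusted p = 0.000597). The gene lies on chromosome 22 from 39520559 to 39522686 (GRCh38, RefSeq) and overlaps no other annotated gene. Its processed copies ATF4P1, ATF4P2, ATF4P3 and ATF4P4 had at most 10 counts each over the 6 libraries.

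ATF3, a bZIP factor induced by many stresses and mitogens, was the scarcest transcript of the set and the one with the largest change. It had 14, 18 and 11 counts in the control libraries and 21, 87 and 105 in the β-alanine libraries. In CPM these were 0.757, 0.819 and 0.561 against 1.46, 3.17 and 3.15. β-alanine library 1 was above all controls but at less than the level of libraries 2 and 3, with log2 distances from the mean of the controls of 1.06, 2.17 and 2.16 in libraries 1, 2 and 3. The fitted log2 change was 1.94 ± 0.28 (SE; edgeR adjusted p = 3.62e-05), in the 99.9th percentile of tested genes. ATF3 spans 212565407 to 212620777 on chromosome 1 and overlaps no annotated gene.

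ATF3 also belongs to the immediate-early genes, which rise within minutes of a stimulus. Of 8 other immediate-early genes, 7 rose and none fell (0 at an unadjusted p under 0.05, and 0 in DESeq2 and limma-voom), with a median log2 change of 1.11. Of all tested genes, 14.1% rose and 13.8% fell. With each library left out in turn, 6 or 7 of the immediate-early genes rose and 0 fell. NR4A1, IER2 and FOS had the smallest p-values, with changes of 2.57 ± 0.11, 0.61 ± 0.05 and 2.03 ± 0.23 (SE). Whether ATF3 moved with these genes or with ATF4 was not tested.

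DDIT3 encodes CHOP, the C/EBP-type factor that links unresolved stress to cell death. It was measured at 17.5, 18.7 and 18.6 CPM in controls and at 21.9, 29.2 and 26.9 CPM after β-alanine. All treated libraries exceeded the controls, library 1 by the least (a log2 distance from the mean of the controls of 0.26, against 0.68 and 0.56). The log2 change was 0.53 ± 0.09 (SE; edgeR adjusted p = 0.000147). On chromosome 12, from 57516588 to 57520517, DDIT3 shares 355 exon bases, or 27.2% of its exon length, with MARS1 on the opposite strand. It shares 58 (4.44%) with MBD6, also antisense, and 105 (8.03%) with AC022506.1 on its own strand, which is not among the counted symbols. MARS1 stood at 182 CPM in controls and 190 CPM after β-alanine, and MBD6 at 62.2 and 71.1 CPM. No source says that reads were assigned by strand, so some reads of DDIT3, MARS1 and MBD6 cannot be told apart.

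ATF5, a close relative of ATF4 that is also under translational control, was the only member with all treated libraries below the controls. Its values were 16.8, 17.2 and 15.5 CPM in controls and 13.2, 14.8 and 15.0 CPM after β-alanine. The gap between the nearest libraries was small. The log2 change of -0.19 had a 95% interval of -0.37 to -0.02 and missed the threshold over all genes (edgeR adjusted p = 0.0929). ATF5 (chromosome 19, 49928906 to 49933935) shares 626 exon bases, 21.2% of its exon length, with the antisense gene NUP62, which was more abundant at 95.8 CPM in controls and 90.6 CPM after β-alanine.

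CEBPB encodes a C/EBP protein that binds ATF4 on composite elements. It varied more between libraries of one group than between groups, with 29.8, 19.6 and 16.2 CPM in control libraries 1, 2 and 3 and 32.0, 24.2 and 18.4 CPM in β-alanine libraries 1, 2 and 3. In both groups library 1 was the highest and library 3 the lowest. The log2 change of 0.14 carried a 95% interval of -0.76 to 1.05 (edgeR adjusted p = 0.805). It turned to -0.05 without β-alanine library 1 and to -0.03 without control library 3. CEBPB was called only with the replicate number as a block, at 0.20 (edgeR adjusted p = 0.0422). CEBPB (chromosome 20, 50190583 to 50192690) shares 231 exon bases with CEBPB-AS1, at 3.37 and 2.91 CPM in controls and after β-alanine.

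Among the effectors, CHAC1 degrades glutathione and is a sensitive reporter of ATF4 activity. It had 4.60, 4.50 and 5.20 CPM in controls and 9.12, 9.08 and 9.26 CPM after β-alanine. The 3 treated libraries were nearly equal, β-alanine library 1 included, with log2 distances of 0.94, 0.93 and 0.96 from the mean of the controls. The fitted change was 0.94 ± 0.11 (SE; edgeR adjusted p = 4.04e-06). CHAC1, whose strict element is printed above, lies on chromosome 15 from 40953471 to 40956512 and overlaps no annotated gene.

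TRIB3, a pseudokinase that binds ATF4 and DDIT3 and restrains them, rose alongside them. It stood at 18.3, 17.1 and 17.2 CPM in controls and at 21.3, 25.0 and 27.8 CPM after β-alanine. β-alanine library 1 was again the lowest of its group and still above each control. The log2 change was 0.51 ± 0.09 (SE; edgeR adjusted p = 0.000125). TRIB3 spans 380760 to 397559 on chromosome 20.

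SESN2 and DDIT4 both restrain the growth kinase mTORC1, SESN2 as a leucine sensor and DDIT4 through the TSC complex. SESN2 was measured at 42.2, 42.6 and 41.6 CPM in controls and at 50, 47.0 and 46.7 CPM after β-alanine, a log2 change of 0.18 ± 0.05 (SE; edgeR adjusted p = 0.0156). All treated libraries lay above the controls, but the call was lost without control library 2 (edgeR adjusted p = 0.0502) or control library 3 (0.0681). DDIT4 stood at 40.0, 43.4 and 39.1 CPM in controls and at 39.4, 38.7 and 37.0 CPM after β-alanine. Its groups overlapped, and the log2 change of -0.10 had a 95% interval of -0.22 to 0.03 (edgeR adjusted p = 0.243). SESN2 lies on chromosome 1 from 28259518 to 28282491, and DDIT4 on chromosome 10 from 72273924 to 72276036. DDIT4 shares 847 exon bases with DDIT4-AS1, which stood at 0.525 CPM in controls and 0.394 CPM after β-alanine.

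SESN2 is also a p53 target, and DDIT4 responds to low oxygen and glucocorticoids. Of 7 other p53 targets tested, 5 rose and none fell (0 at an unadjusted p under 0.05, and 0 in DESeq2 and limma-voom). Of all tested genes, 14.1% rose and 13.8% fell. With each library left out in turn, 4 or 5 of the p53 targets rose and 0 fell. ZMAT3, BTG2 and RRM2B led with log2 changes of 0.50 ± 0.06, 0.41 ± 0.08 and 0.26 ± 0.06 (SE). Of 8 hypoxia and glucocorticoid targets tested, 2 rose (PER1 by 0.30 ± 0.04 and ADM by 0.37 ± 0.12) and 1, FKBP5, fell by 0.23 ± 0.06. With each library left out in turn, 1 to 3 of them rose and 0 or 1 fell. The calls of FKBP5 and ADM were lost without β-alanine library 3 or control library 2, and that of ADM also without β-alanine library 2, control library 1 or control library 3 and in DESeq2 (adjusted p = 0.0952).

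ASNS, which makes asparagine and is the textbook ATF4 target, had low counts in these libraries. It had 71, 93 and 95 counts in controls and 70, 125 and 219 after β-alanine, or 3.84, 4.23 and 4.84 CPM against 4.87, 4.56 and 6.56. β-alanine library 3 stood above the rest, and library 2 lay below the highest control. The log2 change of 0.33 had a 95% interval of 0.01 to 0.65 and missed the threshold (edgeR adjusted p = 0.113). Without β-alanine library 3 it was 0.12 (edgeR adjusted p = 0.677), and without β-alanine library 2 it was 0.45 (edgeR adjusted p = 0.0668). It passed only without β-alanine library 1, at 0.38 (edgeR adjusted p = 0.0493). ASNS (chromosome 7, 97851677 to 97928441) shares 1985 exon bases, 44.6% of its exon length, with the same-strand transcript AC079781.5. That transcript was counted at 1.59 CPM in controls and 1.91 CPM after β-alanine. Reads in the shared bases cannot be told apart by strand, and any loss of ASNS counts through them was not tested. The ASNS copy ASNSP1 was counted at 2.36 CPM in controls and 2.62 CPM after β-alanine, so reads between these copies may be split.

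**Figure D2:**
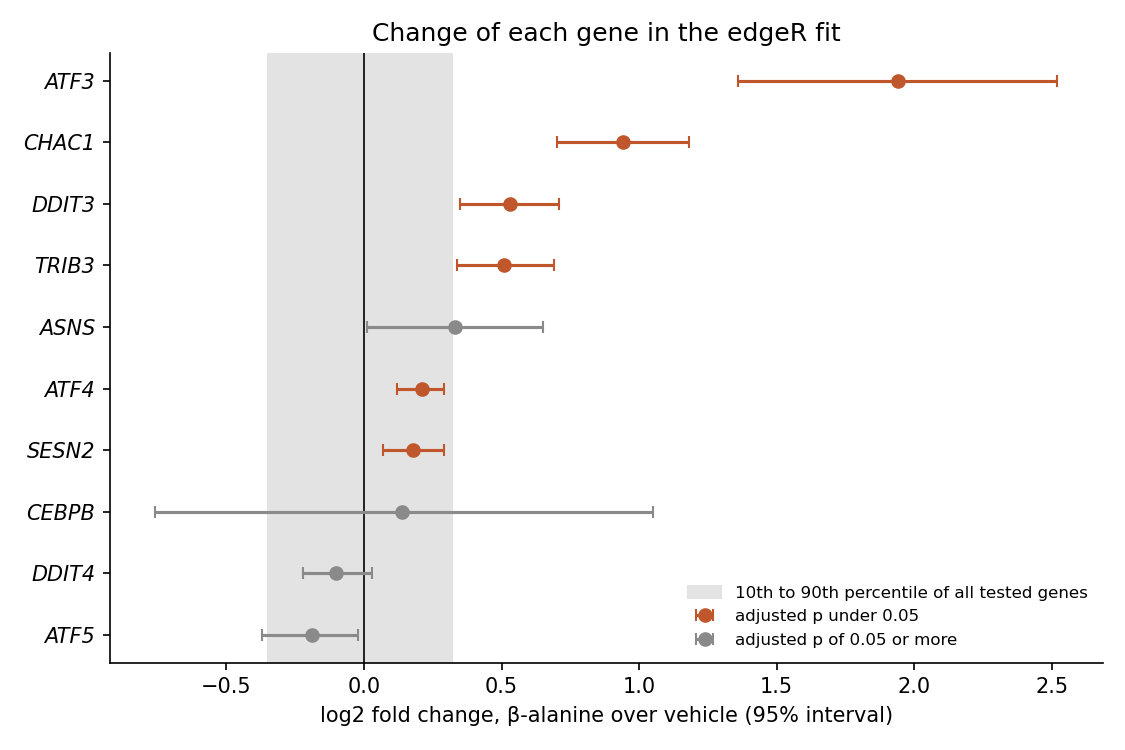
Log2 fold change of each gene (horizontal axis) with its 95% interval from the edgeR fit, against the grey band from the 10th to the 90th percentile of all tested genes (-0.35 to 0.32). ATF3, CHAC1, DDIT3 and TRIB3 lie beyond the band with their whole interval, while ATF4 and SESN2 were called within it.

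Levels can be compared between genes only per length, so CPM were divided by the longest spliced length in GENCODE release 29. On this scale ATF4 was the most abundant in controls, at 67.3 ± 0.567 CPM per kb (SD, n = 3). DDIT4 followed at 23.4 ± 1.30, DDIT3 at 17.1 ± 0.658, SESN2 at 12.2 ± 0.155 and CEBPB at 11.2 ± 3.63 CPM per kb. ATF5 stood at 7.98 ± 0.429, TRIB3 at 7.03 ± 0.263, CHAC1 at 2.58 ± 0.205, ASNS at 1.83 ± 0.215 and ATF3 at 0.339 ± 0.0640 CPM per kb. Of these neighbours, SESN2 and CEBPB, and CEBPB and ATF5, overlapped between control libraries, and the rest did not. After β-alanine DDIT3 (24.4 ± 3.53) exceeded DDIT4 (21.9 ± 0.712) and TRIB3 (9.89 ± 1.31) exceeded ATF5 (6.91 ± 0.482 CPM per kb). The libraries of DDIT3 and DDIT4 then overlapped, from 20.5 to 27.4 and from 21.2 to 22.5, while those of TRIB3 (8.52 to 11.1) lay above those of ATF5 (6.36 to 7.23). ATF3, at 1.23 ± 0.466 CPM per kb, was the lowest after β-alanine on this scale. With coding length in place of spliced length, the control order was the same. After β-alanine the coding scale put DDIT4 (55.1) above DDIT3 (45.1) and ATF3 (4.78) above ASNS (3.17 CPM per kb), so both of these orders depended on the length used.

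**Figure D3:**
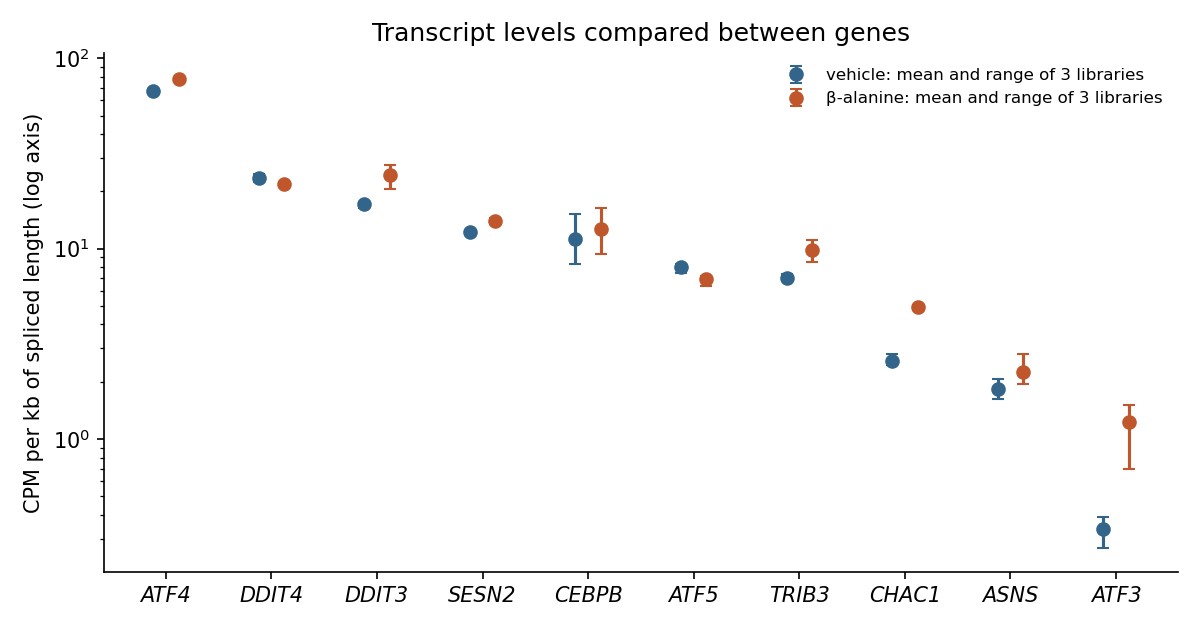
CPM per kb of spliced length on a log axis for each gene, as the mean and the range of the 3 libraries per group, ordered by the level in controls. ATF4 stands highest in both groups (67.3 and 77.7) and ATF3 lowest (0.339 and 1.23).

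The other genes of the pathway were described by lists grouped by role, read against the shares of all tested genes that rose (14.1%) or fell (13.8%). Of 16 genes of the eIF2α kinases and the translation switch, 5 rose and 1 fell, with a median log2 change of 0.08. PPP1R15A, which brings a phosphatase to eIF2α and is itself an ATF4 pathway target, stood at 19.1 ± 1.04 CPM in controls and rose to 27.5 ± 1.82 CPM (SD, n = 3). The constitutive form PPP1R15B rose by a log2 of 0.28 ± 0.05. EIF2B4, a subunit of the exchange factor that phosphorylated eIF2α inhibits, rose by 0.31 ± 0.05 (SE). Of the 4 kinase genes, EIF2AK4 (GCN2) rose by 0.18 ± 0.04, and EIF2AK1, EIF2AK2 and EIF2AK3 passed in neither direction, while GCN1, the partner of GCN2, fell by 0.22 ± 0.04. Without β-alanine library 3 the list had 3 genes that rose, and without β-alanine library 1 it had 7 that rose and 2 that fell.

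Of 12 cytosolic aminoacyl-tRNA synthetases, which load amino acids onto tRNA, 7 rose and 1 fell, with a median log2 change of 0.14. CARS1 rose by 0.34 ± 0.06, GARS1 by 0.27 ± 0.04 and SARS1 by 0.21 ± 0.04 (SE), and WARS1, the tryptophan enzyme, fell by 0.25 ± 0.05. With each library left out in turn, 6 or 7 rose and 1 fell.

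Amino acid supply genes moved in both directions. Of 11 enzymes, 3 rose and 2 fell: CTH, which makes cysteine, rose by 0.49 ± 0.10 and the serine-using enzyme SHMT2 by 0.31 ± 0.04 (SE). MTHFD2 rose by 0.11, while PSAT1 and PHGDH, both of serine synthesis, fell by 0.36 and 0.25. MTHFD2 was not called in DESeq2 or limma-voom, nor with any library other than β-alanine library 3 left out. Of 10 amino acid transporters 3 rose: SLC7A11, the cystine importer, by 0.29 ± 0.07, SLC1A5, which carries glutamine, by 0.19 ± 0.05, and SLC3A2, the shared heavy chain, by 0.17 ± 0.05. SLC1A4 and SLC38A2 fell, by 0.45 and 0.11. The median log2 change was 0.06 for the enzymes and -0.02 for the transporters. Both falls among the transporters lost their call when any one of β-alanine libraries 2 and 3 and control libraries 1 and 2 was left out, and 1 did without control library 3. SLC7A11 was not called without β-alanine library 3, nor SLC3A2 without β-alanine library 2.

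Of 13 stress effectors tested, 6 rose and none fell (0 at an unadjusted p under 0.05, and 0 in DESeq2 and limma-voom), with a median log2 change of 0.19. MAP1LC3B, a core autophagosome protein, rose by 0.41 ± 0.05, the death receptor TNFRSF10B by 0.27 ± 0.05 and KLHL24 by 0.26 ± 0.05 (SE). The secreted factor STC2 and the BH3-only gene PMAIP1 rose by 0.61 ± 0.21 and 0.56 ± 0.15 from low levels of 1.26 and 2.94 CPM. Counts of rises were 5 in DESeq2, 7 in limma-voom and 4 without control library 2. They were 5 without any one of β-alanine libraries 2 and 3 and control libraries 1 and 3. Without β-alanine library 1, 7 genes of the list rose and 1 fell. MAP1LC3B, TNFRSF10B and KLHL24 kept their calls in all of these. FGF21 had no count in any library, and GDF15 and NUPR1 were too low to be tested, at 0.135 and 0.0360 CPM in controls.

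Genes of the other branches of the unfolded protein response, driven by ATF6 and IRE1, were described in the same way. Of 16 tested, 2 rose and 1 fell, with a median log2 change of 0.03. Of all tested genes, 14.1% rose and 13.8% fell. At an unadjusted p under 0.05 in edgeR, 5 of the 16 were higher and 2 lower. HSPA5, the chaperone BiP, stood at 319 ± 2.86 CPM in controls and 320 ± 8.20 CPM after β-alanine (SD, n = 3 per group). EDEM1 rose by 0.23 ± 0.06 and XBP1 by 0.21 ± 0.07, and CALR fell by 0.14 ± 0.04 (SE). XBP1 was not called in DESeq2 (adjusted p = 0.073), nor with either of β-alanine libraries 2 and 3 or control libraries 1 and 3 left out, and EDEM1 was not without β-alanine library 3 or control library 2. Only 1 gene rose without β-alanine library 2, control library 2 or control library 3, and none rose without β-alanine library 3. Without β-alanine library 1, 3 rose and 3 fell. Of 7 mitochondrial chaperones and proteases, 3 rose (CLPP, CLPX and HSPE1, by 0.25, 0.16 and 0.20) and TRAP1 fell by 0.18. TRAP1 lost its call when any one of β-alanine libraries 2 and 3 and control libraries 1 and 2 was left out, and HSPE1 without control library 1 or either of β-alanine libraries 2 and 3. Without β-alanine library 1, 4 genes of that list rose and 2 fell.

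**Figure D4:**
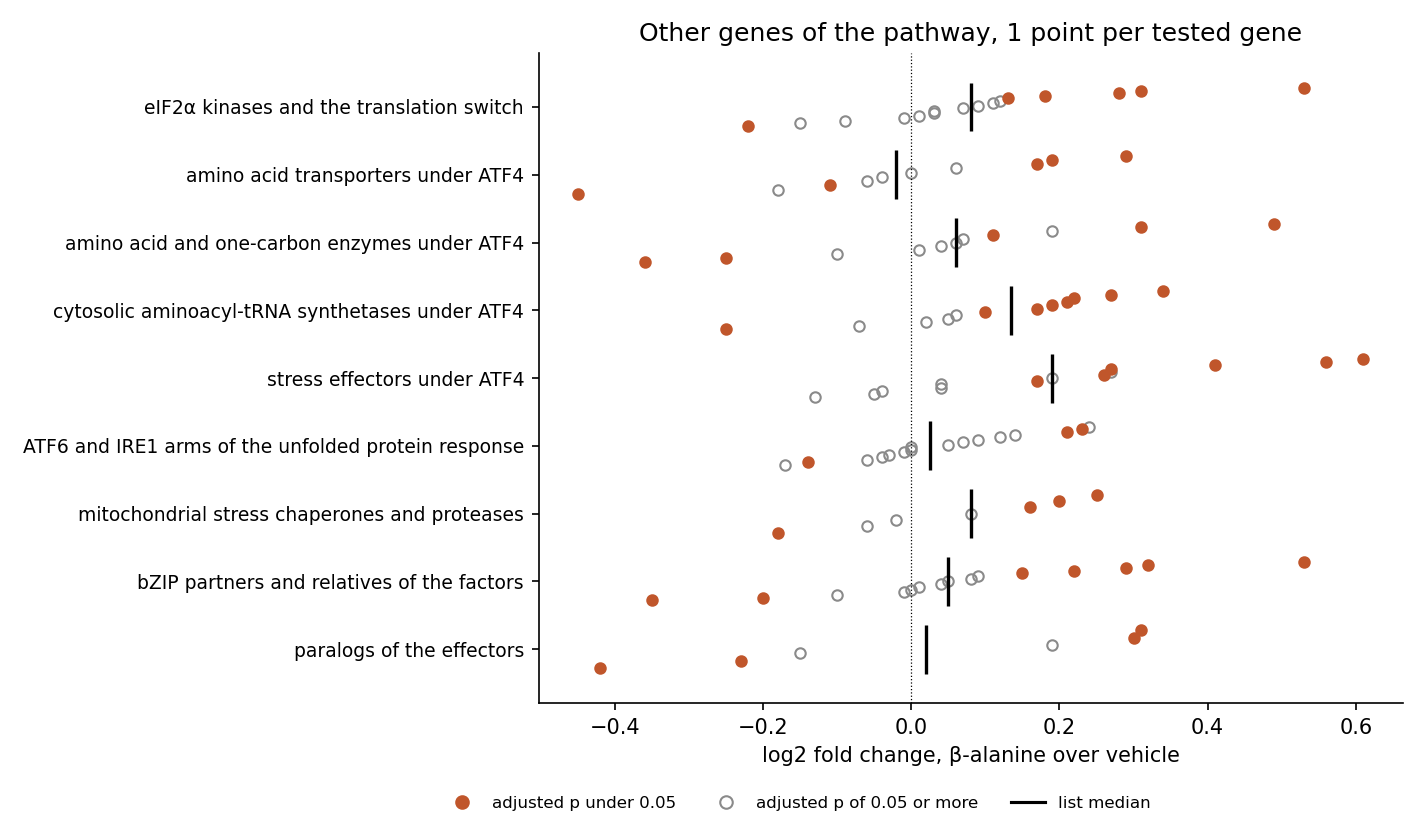
Log2 fold change of each tested gene (horizontal axis, 1 point per gene) in 9 lists of pathway genes, filled where the adjusted p was under 0.05, with a line at the list median. The synthetase and stress effector medians stand at 0.14 and 0.19, and that of the ATF6 and IRE1 genes at 0.03.

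Paralogs of the effectors were called in both directions. CHAC2, the constitutive paralog of CHAC1, changed by a log2 of -0.42 ± 0.15 (SE; edgeR adjusted p = 0.0403), from 4.98 ± 0.705 to 3.63 ± 0.499 CPM (SD, n = 3 per group). That call was lost in DESeq2 (adjusted p = 0.108), in limma-voom (adjusted p = 0.0547), with library totals only, with no filter on low counts, and without any single library other than control library 2. TRIB1 rose by 0.30 ± 0.09, a call lost without control library 2 or either of β-alanine libraries 2 and 3. SESN1 stood at 14.0 and 15.9 CPM in controls and after β-alanine (edgeR adjusted p = 0.0884), and SESN3 fell by 0.23 ± 0.08. ASNSD1, which shares a domain with ASNS, rose by 0.31 ± 0.05. Of 6 paralogs tested, 2 rose and 2 fell in edgeR, and none fell in DESeq2 (2 at an unadjusted p under 0.05 in edgeR, 1 called in limma-voom). Without β-alanine library 2 or 3 1 rose and none fell, and none fell without control library 1 or 3. Without control library 2, 1 rose and 1 fell, and without β-alanine library 1, 1 fell.

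Among 15 bZIP partners and relatives of the factors, 5 rose and 2 fell, with a median log2 change of 0.05. CEBPG, a partner of ATF4 at amino acid genes, had 86.2 ± 2.87 CPM in controls and rose to 101 ± 4.99 CPM (SD, n = 3). ATF1 rose by 0.32 ± 0.05 and ATF6 fell by 0.20 ± 0.05 (SE). Counts of rises dropped to 3 without β-alanine library 2 or control library 2 and reached 6 without β-alanine library 1. Only 1 fell without β-alanine library 3 or control library 2.

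Likeness of pattern was measured as the root mean square difference of log2 CPM, centred on the control mean, over the 6 libraries, among 12451 genes. Among the nearest to ATF4 were KIF20A (0.0140) and TADA3 (0.0170). Nearest to CHAC1 were RERG (0.0388), C2CD2L (0.0791) and SLC35G2 (0.0824). For ATF3 they were GREB1 (0.214), MAP3K14 (0.234) and EGR1 (0.347). Their values in β-alanine library 1 were nearer to controls, at 1.10, 1.02 and 1.56 on the log2 scale. Since these genes were chosen for likeness to ATF3 over the same libraries, this is not a separate observation. GREB1 was not called when control library 1 was left out. EGR1 lost its call with any control or β-alanine library 3 left out, and MAP3K14 with any control, β-alanine library 2 or β-alanine library 3 left out.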

How the data were processed

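Gene counts of 6 DMS114 libraries, deposited by the authors as raw values by symbol, were compared between 2 groups of 3 named in the titles. Per the submitters' processing notes, GRCh38 is the build, and the listed tools include featureCounts 2.0.1, STAR 2.7.3a, Trimmomatic 0.39, bcl2fastq and DESeq2. Their settings, the annotation and the strand were not given in the sources used here, so exon overlaps on either strand and near-identical copies are uncertain.

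Genes passing filterByExpr (17331) were tested with edgeR 4.0.16 in R 4.3.3: quasi-likelihood, robust, TMM, no covariate, two-sided, Benjamini-Hochberg adjustment, threshold 0.05. The test was tried on simulated data first. Lengths and overlaps came from GENCODE 29, positions and promoters from RefSeq (GRCh38.p14). Alternatives used DESeq2 1.42.0, limma 3.58.1, other scalings and filters, a replicate block and each library left out; list counts with a library left out were added after seeing the data.

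The members and lists were chosen with earlier results of these data known. Named were all members, up to 3 called genes per list with the smallest p, and the 3 genes nearest in pattern to ATF4, ATF3 and CHAC1. A gene that this rule names and a marker are not reported here. The eIF2α kinases, GCN1, MTHFD2, PHGDH, SLC1A4, SLC38A2, WARS1, STC2, PMAIP1, HSPA5, TRAP1, SESN1, SESN3, FGF21, GDF15 and NUPR1 were named after their values were seen. All 6 libraries entered the test.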

Additional observations from a re-analysis of the deposited data

How the results depend on the processing

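The calls of ATF4, ATF3, DDIT3, CHAC1 and TRIB3 held under all 15 alternatives, with log2 changes of 0.18 to 0.23, 1.79 to 2.13, 0.44 to 0.61, 0.90 to 1.01 and 0.41 to 0.59. SESN2 stayed between 0.15 and 0.20 and was lost without control library 2 or 3. ATF5 (-0.24 to -0.15) and DDIT4 (-0.13 to -0.05) were called under none. ASNS ran from 0.12 to 0.45 and was called only without β-alanine library 1. With a library left out, CEBPB ran from -0.05 (without β-alanine library 1) to 0.42 (without control library 1), and stood at -0.03 without control library 3. With the replicate number as a block, CEBPB was called at 0.20 (edgeR adjusted p = 0.0422), 7 members rose and 2564 and 2608 genes rose and fell. Deviations from the group means correlated at 0.0881, 0.0121 and 0.143 between same-numbered libraries, and at -0.125 to 0.00984 between different-numbered ones. Each same-numbered value was the highest for its libraries, but not all were over 0.1, so the numbers were not taken as pairing. A shared day or batch behind the numbers was neither named in the labels nor tested. The replicate block changed no other member's call. With each library left out in turn, 5 to 7 members rose and 0 fell, and over all genes 1501 to 3204 rose and 1473 to 3294 fell. The low ends, over 1.5 times below the full counts of 2441 and 2389, came without β-alanine library 2 (1501 and 1473) and control library 2 (1570 and 1488). Coding length in place of spliced length moved all 10 levels per kb. No scaling moved the median of all genes by over 0.1 on the log2 scale. The lowest counts among the members were those of ATF3, with 11 to 105 per library.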
